A study of Mus musculus with 6 samples.

Results

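The cytosolic ribosomal protein genes encode the proteins of the 80S ribosome, and their transcripts were compared between 3 aorta libraries of wild type mice and 3 labelled as Josd2 knockouts. Both groups had been given angiotensin II (Ang II), a peptide hormone that constricts vessels and remodels their walls, and untreated mice were not analysed here. Josd2 encodes a deubiquitinase of the Josephin family. The sources used here do not give the strain, age, sex, dose, knockout allele or number of mice per library. Members were taken by symbol, as rows typed protein_coding whose name is Rpl or Rps with a number, Rplp0 to Rplp2 or Rpsa, without Rps6 kinases and pseudogenes. This gave 83 genes of 41064 in the table, and 82 of them were among the 20132 genes that passed a filter on low counts.

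A ribosome is built from ribosomal RNA and a set of proteins that are needed in balanced numbers, the Rps proteins in the small subunit and the Rpl proteins in the large one. The P stalk, formed by Rplp0, Rplp1 and Rplp2, recruits elongation factors to the large subunit. Their mRNAs belong to the 5′ TOP class, which starts with a run of pyrimidines and whose translation follows growth signals through mTOR and Larp1. Most members have processed pseudogenes, copies of the spliced transcript reinserted in the genome.

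Summed counts lay between 63612353 and 75886761 per library, in a unit of estimated counts. Josd2 itself was measured at 29.9, 31 and 29.3 CPM (counts brought by TMM scaling to a common library size) in wild type and 21.7, 19.9 and 21.4 CPM in the other group, so its transcript was retained and the second group is called by its label, as the libraries labelled knockout or the labelled knockouts. Its log2 fold change was −0.52 (adjusted p = 0.000244 by the quasi-likelihood test of edgeR and Benjamini-Hochberg adjustment over all tested genes, used throughout), and −0.11 (adjusted p = 0.231) with library totals in place of TMM. The aorta label was met by 7 smooth muscle markers, which summed to 20383 to 20556 CPM in wild type and 19835 to 19953 CPM in the libraries labelled knockout. The extraction protocol in the labels speaks of an adipose type, and 7 adipocyte markers, given with the other cell types, were also detected. Of 7 testis germ cell markers, 5 were in the table and Prm1 and Dazl were at 0 in every library. The 5 summed to 0.14 to 1.06 CPM in wild type and 0.19 to 0.46 CPM in the libraries labelled knockout. Nothing in the labels says whether the libraries came from separate mice, so the p-values rest on a spread between samples that may be only technical. In wild type the members' median coefficient of variation (CV) was 2.75%, and in the libraries labelled knockout 2.58%.

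With TMM scaling, 70 of the 82 tested members were lower in the libraries labelled knockout, 0 were higher and 12 did not pass the test at an adjusted p of 0.05. Among all tested genes the same test called 11.5% lower and 13.2% higher, or 24.7% in either direction. The calls depended on scaling: with library totals 52 members were called higher and 2 lower (Rplp0 and Rpl39), beside 46.8% and 3.81% of all tested genes. With limma on log2(FPKM + 1), which also scales to library totals, 50 were higher and 2 lower, beside 46.9% and 4.31%. The median log2 fold change of the members was −0.27 under TMM, which is 82.9% of the wild type level, and 0.14 with library totals. The median of all tested genes was −0.0031 under TMM and 0.41 with library totals. In both scalings the members' median lay 0.27 below that of all tested genes on the log2 scale. A change of scaling shifts the log2 fold changes of all genes by nearly the same amount, so this distance could hardly differ. The members' median minus that of all tested genes was −0.064 with limma on log2(FPKM + 1) and −0.21 with limma on log2(FPKM + 0.1). In these 2 fits the members' median stayed at 0.14, while that of all tested genes was 0.20 and 0.35. Many abundant genes were called at this spread: among 974 other genes with a mean of at least 100 CPM, 38.8% were lower and 35.8% higher under TMM, with a median of −0.02.

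**Figure D1:**
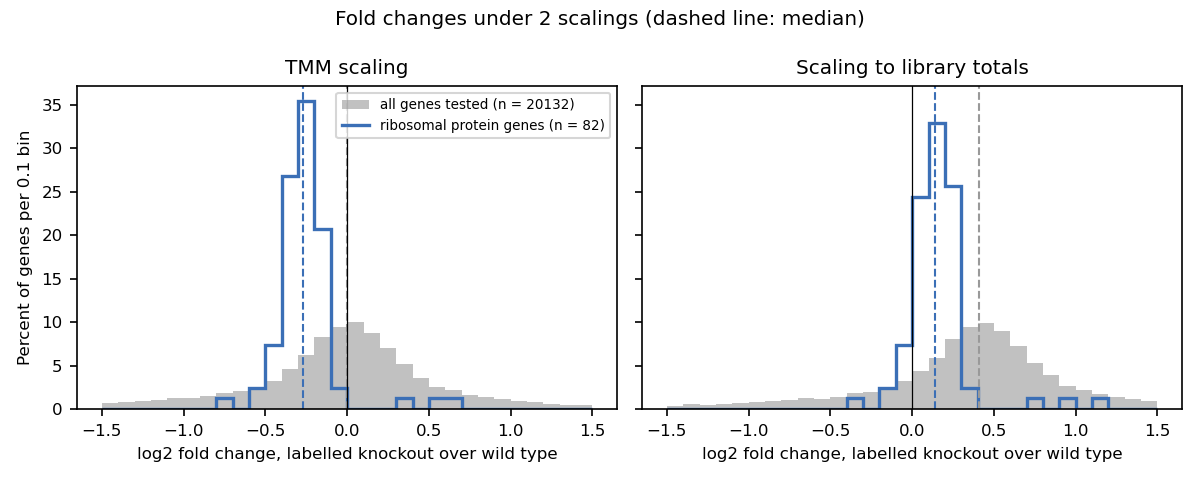
Share of genes per 0.1 bin of log2 fold change (x axis, labelled knockout over wild type, drawn from −1.5 to 1.5) for the 82 tested members (blue outline) and all 20132 tested genes (grey), under TMM and with library totals. The members' median (dashed) is −0.27 on the left and 0.14 on the right. It lies 0.27 below that of all tested genes in both panels, since a change of scaling shifts all genes nearly alike.

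Mitochondrially encoded transcripts moved with this scale. They took 36.2% ± 0.0282 of all counts in wild type and 23.9% ± 0.0274 in the libraries labelled knockout (SD, n = 3 each). The members took 1.62%, 1.63% and 1.64% of all counts in wild type and 1.79%, 1.79% and 1.81% in the libraries labelled knockout, higher in all 3 of the latter. Outside mitochondrially encoded genes the order turned, with 2.54, 2.56 and 2.56% against 2.35, 2.36 and 2.38%, again without overlap. When 15 nuclear copies of mitochondrial genes were also left out of the total, a denominator chosen after seeing the data, the shares were 3.06, 3.09 and 3.08% and 2.59, 2.6 and 2.62%. A fit scaled to that smaller total called 67 members lower and 0 higher, with a median of −0.24, beside 10.4% and 14.8% of all tested genes. Unless a scaling is named, directions below are those under TMM.

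Cell type markers also differed between the groups. Among all tested genes 13.2% were called higher and 11.5% lower under TMM, and 46.8% and 3.81% with library totals. Of 7 smooth muscle markers 4 were higher and 1 lower under TMM, although their sum was slightly lower in the libraries labelled knockout. With library totals all 7 were higher. All 7 endothelial markers were higher in the libraries labelled knockout, with a summed level of 753 to 759 CPM against 411 to 425 CPM. Of 7 fibroblast markers 6 were lower and 1 higher under TMM (3686 to 3702 against 5637 to 5767 CPM). With library totals 4 of these 7 were higher and 1 lower. Their median log2 fold change was then 0.13, below the 0.41 of all tested genes. Of 7 macrophage markers 6 were lower (350.5 to 356 against 720 to 739 CPM), and 5 with library totals, where 1 was higher. Of 7 adipocyte markers 4 were higher (668 to 670.0 against 512 to 545 CPM). Striated muscle markers went both ways, 2 of 12 higher and 2 lower, and summed to 49.6 to 51.3 against 38.2 to 39.2 CPM. Of 12 lymphocyte markers 3 were higher, with sums of 32.0 to 34.4 against 16.3 to 26.1 CPM. The part of these cells in the members' levels was not tested. In bulk tissue, fewer cells of a type and less RNA per cell cannot be told apart.

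By place in the ribosome, 38 of 43 large subunit members, 26 of 31 small subunit members and all 3 P stalk members were lower, with median log2 fold changes of −0.26, −0.29 and −0.28 under TMM and 0.15, 0.12 and 0.13 with library totals. The middle 50% of the 82 members lay between −0.33 and −0.20. In 73 members the 3 wild type libraries did not overlap with the other 3, all of them lower in the libraries labelled knockout; over all tested genes 41.1% did not overlap, 19.8% in that direction. Log2 fold changes of the 82 members had a Spearman rho of 0.087 with transcript length and −0.028 with mean CPM, given as descriptions across genes.

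**Figure D2:**
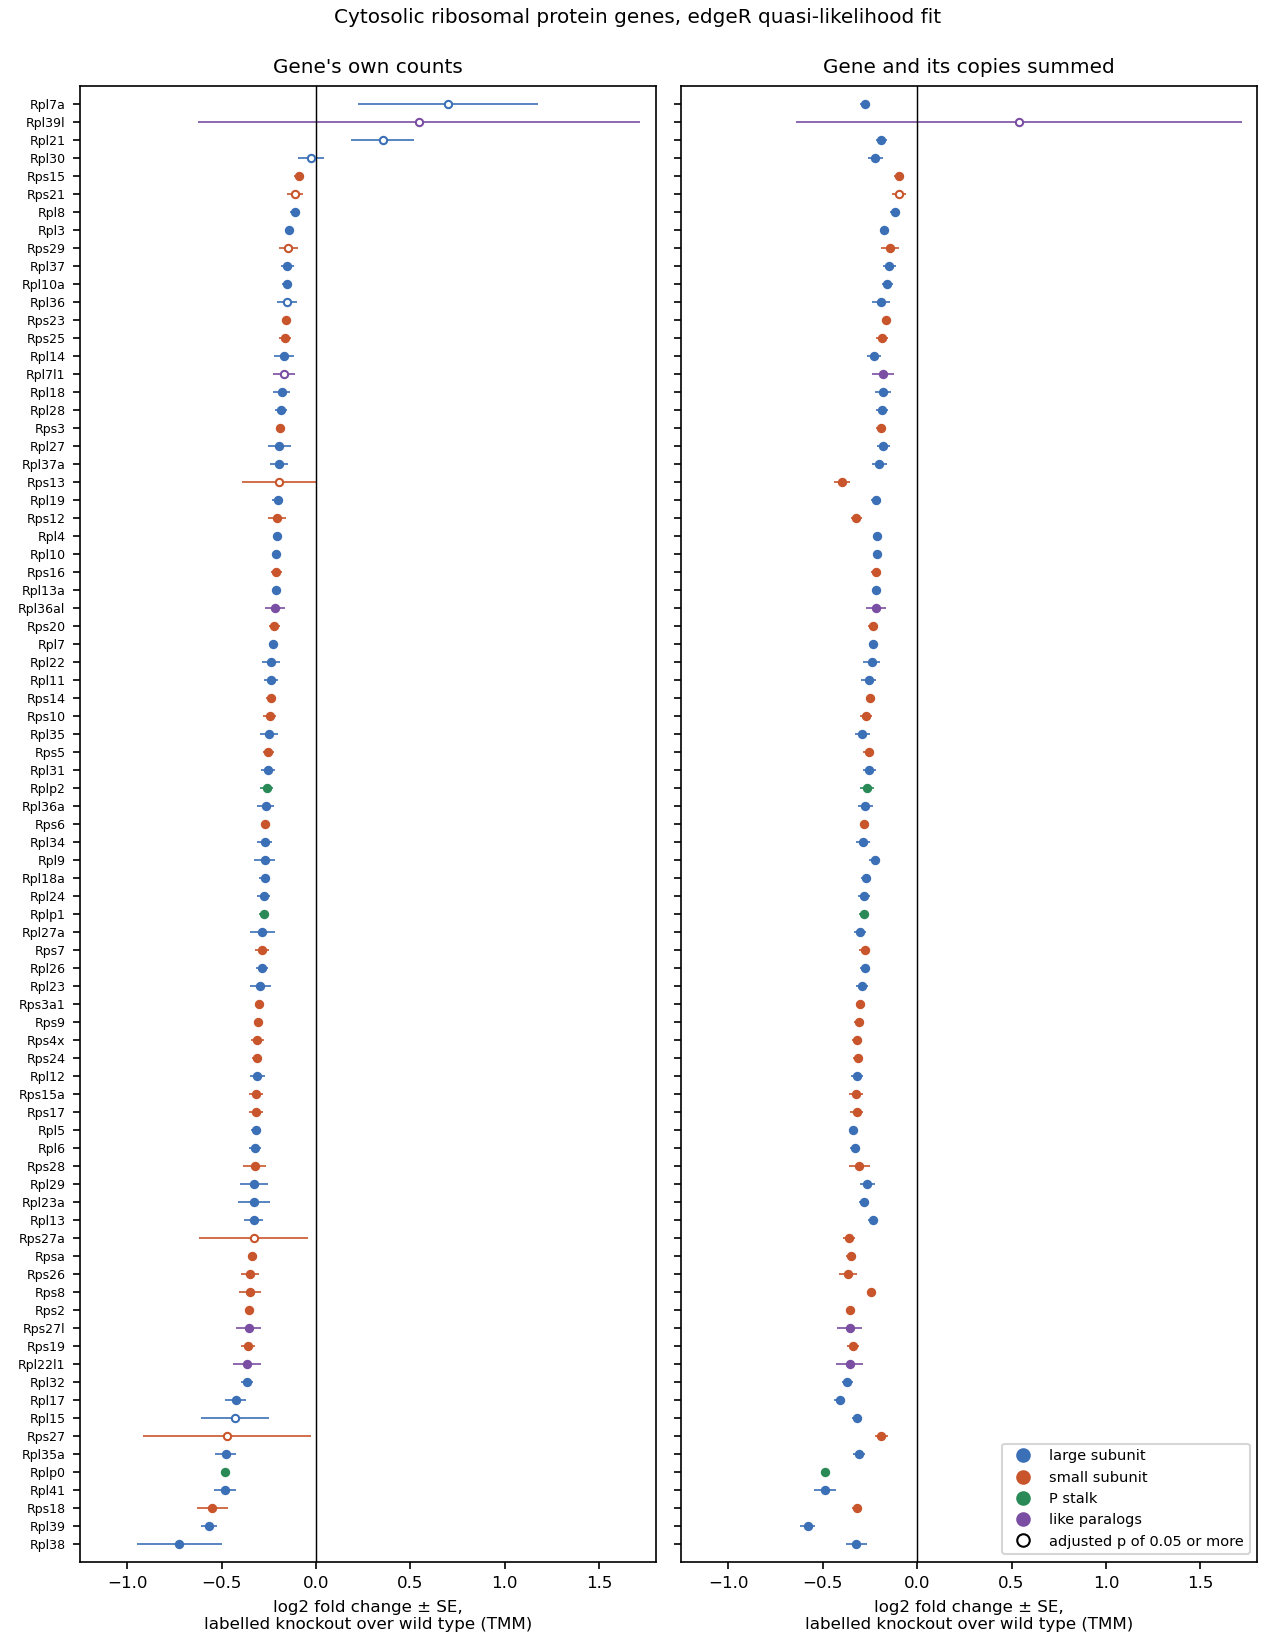
Log2 fold change with its SE (x axis, labelled knockout over wild type, TMM) of 81 of the tested members, sorted, from each gene's own counts (left) and after summing each gene with its near-identical copies (right). Filled points have an adjusted p under 0.05: 69 on the left and 79 on the right, all below 0; with library totals the members' median on the left becomes 0.14.

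The sequences around the transcription start of the 6 members with the largest decreases show how far they share the pyrimidine start of the 5′ TOP class. Each line gives 25 bases before and 20 bases from the start that RefSeq lists furthest upstream on GRCm38.p6, with the longest run of C and T that reaches within 20 bases of the start in capitals.
Rpl38, chr11:114668555-114668599, plus strand: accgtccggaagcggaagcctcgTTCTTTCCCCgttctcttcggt
Rpl39, chrX:37085203-37085247, minus strand: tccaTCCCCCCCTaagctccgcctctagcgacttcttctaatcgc
Rps18, chr17:33955646-33955690, minus strand: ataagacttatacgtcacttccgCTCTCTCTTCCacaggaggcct
Rpl41, chr10:128549149-128549193, minus strand: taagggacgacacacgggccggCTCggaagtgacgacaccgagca
Rplp0, chr5:115559442-115559486, plus strand: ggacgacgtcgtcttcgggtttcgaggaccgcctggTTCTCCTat
Rpl35a, chr16:33056428-33056472, plus strand: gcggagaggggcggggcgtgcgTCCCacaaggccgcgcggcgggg
The runs of Rpl38, Rps18 and Rpl39 were 10, 11 and 9 bases long. Those of Rplp0, Rpl35a and Rpl41 were 7, 4 and 3 bases. The runs of Rpl38, Rps18 and Rpl35a span the listed start, those of Rpl39 and Rpl41 lie before it and that of Rplp0 after it. A RefSeq start may lie some bases from the start used in the aorta, which these data do not show. Among 63 of the 83 members with a RefSeq promoter window of 300 bases (250 before and 50 after the start), 30 or 47.6% had a run of at least 8 C or T within 20 bases of the start, against 20.8% of 27025 genes. The letters CCGGAAG, read by ETS family factors, stood on either strand in 39.7% of the members' windows and 9.14% of all. AAGATGGC, read by YY1, stood in 9.52% and 2.87%, GGGGCGGG, read by Sp and KLF factors, in 15.9% and 16.7%, and TATAAA in 11.1% and 14.2%. A match describes these letters only.

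The P stalk transcripts were all lower. Rplp0, its scaffold, measured 650.1, 658 and 658 CPM in the wild type libraries against 466, 475 and 469 CPM in the labelled knockouts, with a gap between the groups (log2 change −0.48, SE 0.018, adjusted p = 7.01e-09). It stayed lower with library totals, at −0.070 (adjusted p = 0.00615), where most members were higher. Rplp1, an acidic stalk protein, measured 351, 365 and 350.4 CPM in the wild type libraries against 296, 289.9 and 295 CPM in the labelled knockouts (log2 change −0.28, SE 0.025, adjusted p = 1.27e-05; 0.13 with library totals). Rplp2, its partner in the stalk dimer, measured 126, 123 and 127 CPM in the wild type libraries against 104, 107 and 103 CPM in the labelled knockouts (log2 change −0.26, SE 0.036, adjusted p = 0.000283; 0.15 with library totals). The groups did not overlap in any of these 3 genes.

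Among the small subunit members with roles beyond the ribosome, Rpsa, also known as the laminin receptor precursor, measured 592, 589 and 604 CPM in the wild type libraries against 459.8, 471 and 481 CPM in the labelled knockouts (log2 change −0.34, SE 0.022, adjusted p = 7.32e-07). Rps6, the substrate of the S6 kinases downstream of mTOR, measured 409.6, 404 and 402 CPM in the wild type libraries against 332, 336 and 340.1 CPM in the labelled knockouts (log2 change −0.27, SE 0.021, adjusted p = 4.49e-06). Rps25, a protein used by some viral internal ribosome entry sites, measured 215, 215 and 222 CPM in the wild type libraries against 189.5, 196 and 197 CPM in the labelled knockouts (log2 change −0.16, SE 0.030, adjusted p = 0.00196). All 3 were lower in each library labelled knockout than in any wild type library, and all 3 were higher with library totals, at 0.071, 0.14 and 0.25.

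In the large subunit, Rpl5 and Rpl11 form a particle with 5S ribosomal RNA that binds Mdm2 when ribosome assembly fails. Rpl5 measured 464, 469 and 486 CPM in the wild type libraries against 383, 367 and 389 CPM in the labelled knockouts (log2 change −0.32, SE 0.027, adjusted p = 8.42e-06). Rpl11 measured 199, 212 and 198 CPM in the wild type libraries against 172, 167 and 176 CPM in the labelled knockouts (log2 change −0.24, SE 0.036, adjusted p = 0.000598). Both were lower without overlap, and both were higher with library totals, at 0.092 and 0.17. Rpl13a, which also acts in a complex that silences inflammatory mRNAs, measured 479.9, 479 and 488 CPM in the wild type libraries against 410.2, 415 and 422 CPM in the labelled knockouts (log2 change −0.21, SE 0.020, adjusted p = 1.79e-05; 0.20 with library totals). Rpl10a, the protein of the L1 stalk, measured 240.4, 246 and 246 CPM in the wild type libraries against 220.5, 216 and 223 CPM in the labelled knockouts (log2 change −0.15, SE 0.027, adjusted p = 0.00156; 0.26 with library totals).

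Among the members with the highest mean FPKM (fragments per kilobase of exon, scaled to the library's total, as deposited) over the 6 libraries were Rplp1 at 549, Rps3a1 at 418, Rps15 at 389, Rplp0 at 283, Rpl4 at 244, Rps4x at 243, and Rpl19 at 229.5. The lowest tested members were Rpl39l at 0.141 and Rpl21 at 7.8 FPKM. The length implied by count and FPKM ran from 452 to 7405 bases, while the members' reference transcripts ran from 271 to 3706 bases, so the order depends on the length used. Per kilobase of reference transcript, Rplp1 remained first and Rpl10 was next, at 650.5 and 616 CPM per kilobase. Rps3a1 measured 529.6, 540.1 and 537 CPM in the wild type libraries against 428, 441 and 435 CPM in the labelled knockouts (log2 change −0.30, SE 0.020, adjusted p = 9.54e-07). Rpl4, which lines the exit tunnel of the nascent chain, measured 623, 624 and 618 CPM in the wild type libraries against 541, 530.4 and 542 CPM in the labelled knockouts (log2 change −0.21, SE 0.018, adjusted p = 6.72e-06). Their groups stood apart.

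Rps15, a small subunit head protein, measured 299, 294 and 299 CPM in the wild type libraries against 285, 277 and 276 CPM in the labelled knockouts and had the decrease nearest to 0 among the members called (log2 change −0.092, SE 0.025, adjusted p = 0.0182). Its adjusted p rose to between 0.0571 and 0.0876 without wild type 1, wild type 3, knockout 2 or knockout 3 and to 0.194 without a filter on low counts, and its log2 fold change was 0.32 with library totals. Rps4x, an X-linked small subunit member, was at 521 ± 12.1 CPM in wild type against 420.1 ± 22 CPM (SD, n = 3 each; log2 change −0.31, SE 0.034, adjusted p = 5.92e-05). Rpl19 was at 297 ± 6.52 CPM in wild type against 258 ± 8.25 CPM (SD, n = 3 each; log2 change −0.20, SE 0.030, adjusted p = 0.000514). These 2 were 0.099 and 0.21 with library totals.

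The 6 largest decreases among called members under TMM included Rplp0, described with the stalk, and 5 others. Rpl39, a small protein in the exit tunnel, measured 136, 127 and 137 CPM in the wild type libraries against 92.6, 90.4 and 87.3 CPM in the labelled knockouts (log2 change −0.57, SE 0.042, adjusted p = 2.41e-06). It was also lower with library totals, at −0.16 (adjusted p = 0.00925). Rpl41, the shortest ribosomal protein, measured 285, 334 and 277 CPM in the wild type libraries against 211, 222 and 208 CPM in the labelled knockouts (log2 change −0.48, SE 0.060, adjusted p = 0.000143). Rpl35a measured 159.7, 153 and 153 CPM in the wild type libraries against 122, 104 and 108 CPM in the labelled knockouts (log2 change −0.48, SE 0.055, adjusted p = 7.54e-05). In all 3 the groups did not overlap, and the wild type libraries of Rpl41 were the more spread. With library totals Rpl41 and Rpl35a were no longer called, at −0.073 and −0.069 (adjusted p = 0.352 and 0.338).

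Rps18, in the head of the small subunit, measured 218, 221 and 205 CPM in the wild type libraries against 172, 136 and 132 CPM in the labelled knockouts, with the first library labelled knockout above the other 2 (log2 change −0.55, SE 0.082, adjusted p = 0.000523). With library totals it was at −0.14 and not called (adjusted p = 0.188). Rpl38, whose loss alters the body plan of mice, measured 46.7, 47 and 48 CPM in the wild type libraries against 18.4, 42.4 and 25 CPM in the labelled knockouts (log2 change −0.72, SE 0.23, adjusted p = 0.0381). Its wild type libraries lay close together, while the first and the third library labelled knockout lay far below the second. The Rpl38 call was lost when any library but the second knockout one was left out, with adjusted p-values of 0.0885 to 0.139, under DESeq2 (adjusted p = 0.107) and without a filter on low counts (adjusted p = 0.077). With library totals it was −0.31 and not called either (adjusted p = 0.283), nor with mitochondrial genes and members left out of those totals (adjusted p = 0.079) or with limma (adjusted p = 0.261 and 0.251 at pseudocounts of 1 and 0.1).

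Many members share sequence with other rows of the table. In 72 of the 83, part of the reference transcript matched another gene at 97% identity or more over at least 100 bases, with a median of 69.2% of the transcript over all members and at most 99.6% in Rps10. The sources used here do not say how reads that fit several genes were counted, so the values of these members are uncertain. Near-identical copies (at least 90% identity over 100 bases and over 50% of the copy's transcript) were found for 79 members, 961 copies in all, with up to 75 for Rpl21. The 10 tested members without a match included 7 called lower, with a median log2 fold change of −0.22, and the 72 with a match included 63 called lower, with a median of −0.27.

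The coding sequences of a gene and its copy show how alike these rows of the table are. Rps27 (chr3:90212522-90213651, minus strand, GRCm38) and Rps27rt (chr9:114982366-114982739, minus strand), an expressed retrogene that the rule did not take, are identical over all 255 coding bases.
Rps27 and Rps27rt: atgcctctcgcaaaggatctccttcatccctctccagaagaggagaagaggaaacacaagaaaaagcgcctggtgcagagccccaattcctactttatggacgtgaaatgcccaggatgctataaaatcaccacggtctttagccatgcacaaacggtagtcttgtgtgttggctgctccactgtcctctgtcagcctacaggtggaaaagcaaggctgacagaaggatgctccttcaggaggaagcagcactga
Rpl38 (chr11:114668524-114672331, plus strand) and its pseudogene Rpl38-ps2 (chr6:140746960-140747172, minus strand) are identical over all 213 coding bases.
Rpl38 and Rpl38-ps2: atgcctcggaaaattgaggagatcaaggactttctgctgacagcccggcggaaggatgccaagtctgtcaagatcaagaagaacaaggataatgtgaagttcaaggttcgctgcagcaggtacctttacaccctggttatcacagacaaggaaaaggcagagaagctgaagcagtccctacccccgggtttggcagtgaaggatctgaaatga
Rps27a (chr11:29545846-29548109, minus strand) and Rps27a-ps2 (chr9:83409660-83410126, plus strand) differ by 1 substitution, A375G, over 467 coding bases, with positions counted from the first base of the Rps27a start codon. The 61 bases around it, from 345 to 405, are given with the differing base in capitals.
Rps27a: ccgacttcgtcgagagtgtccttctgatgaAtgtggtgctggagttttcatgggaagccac
Rps27a-ps2: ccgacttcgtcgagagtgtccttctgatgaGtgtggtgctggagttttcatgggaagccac
These sequences are those of the GENCODE M21 transcripts.

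In the pairs given here, libraries low for the gene were high for its copy. Rps27 measured 23.5, 78.4 and 91.9 CPM in the wild type libraries against 22, 65.2 and 52.5 CPM in the labelled knockouts. Rps27rt measured 145, 83.6 and 78.5 CPM in the wild type libraries against 126, 83.4 and 90.7 CPM in the labelled knockouts. Where Rps27 was low, in the first library of each group, Rps27rt was high, and the sum of both was 169, 162 and 170.4 CPM in the wild type libraries against 148, 149 and 143 CPM in the labelled knockouts. The groups overlapped in Rps27 alone (log2 change −0.47, SE 0.44, adjusted p = 0.5) and did not overlap in the sum.

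Rps27a, made as a fusion of ubiquitin and a small subunit protein, measured 168, 172 and 98.8 CPM in the wild type libraries against 182, 83.7 and 82.8 CPM in the labelled knockouts (log2 change −0.33, SE 0.29, adjusted p = 0.461). Rps27a-ps2 measured 94.4, 105 and 143 CPM in the wild type libraries against 38.4, 118 and 116 CPM in the labelled knockouts. The first library labelled knockout was the highest of the 6 for the gene and the lowest for the pseudogene. Without that library the decrease of Rps27a was −0.81 (adjusted p = 0.0171).

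Rpl38-ps2 measured 16.6, 17.9 and 14.8 CPM in the wild type libraries against 26, 11.5 and 25.3 CPM in the labelled knockouts, high in the first and the third library labelled knockout, where Rpl38 was low. Rpl15 and Rpl15-ps3 showed the like, with Rpl15 at 129.6, 172 and 158 CPM in the wild type libraries against 75.4, 137 and 129 CPM in the labelled knockouts (log2 change −0.43, SE 0.18, adjusted p = 0.114). Rpl15-ps3 measured 34.9, 12.3 and 20.5 CPM in the wild type libraries against 38.5, 14.8 and 16.8 CPM in the labelled knockouts, highest where Rpl15 was lowest. Rps13 measured 109, 80.8 and 55.2 CPM in the wild type libraries against 81.5, 58.5 and 73.9 CPM in the labelled knockouts (log2 change −0.20, SE 0.20, adjusted p = 0.531). Rps13-ps1, which differs from it by T411C and A429G in the coding sequence, measured 15.5, 20.8 and 38.5 CPM in the wild type libraries against 9.03, 21.4 and 13.5 CPM in the labelled knockouts.

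**Figure D3:**
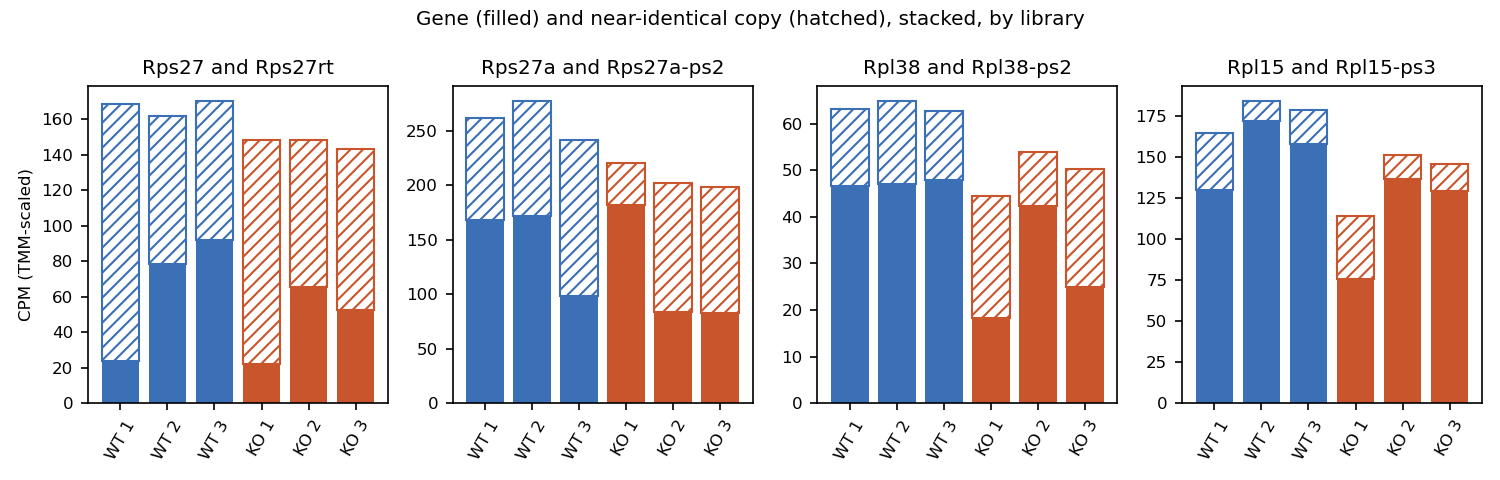
CPM (y axis, TMM-scaled) of 4 members (filled) and their near-identical copy (hatched, stacked on top) in each of the 3 wild type (blue) and 3 libraries labelled knockout (orange). Within a group the whole bar varies less than the filled part, except for Rpl38 in wild type: Rps27 runs from 23.5 to 91.9 CPM in wild type, and Rps27 with Rps27rt from 162 to 170.4 CPM.

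Summing each member with all of its copies, an alternative chosen after seeing the data, left 80 of 82 members lower and 0 higher, with a median of −0.27 under TMM. In that fit 11.9% of the 19765 tested rows were lower and 13.4% higher. The SD of log2 fold changes across members went from 0.192 to 0.123, and the members whose groups did not overlap from 73 to 81. Over all tested genes 41.1% did not overlap before summing, and the share after summing was not computed. Before summing, 14 tested members had a CV above 10% in a group, and 2 (Rpl41 and Rpl39l) had one afterwards. Of these 14 members 13 had a match elsewhere, as did 72 of all 82 tested members. The median CV went to 1.9% in wild type and 2.17% in the libraries labelled knockout. A sum over more counts has less counting error by itself, and its part in these CVs was not tested.

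**Figure D4:**
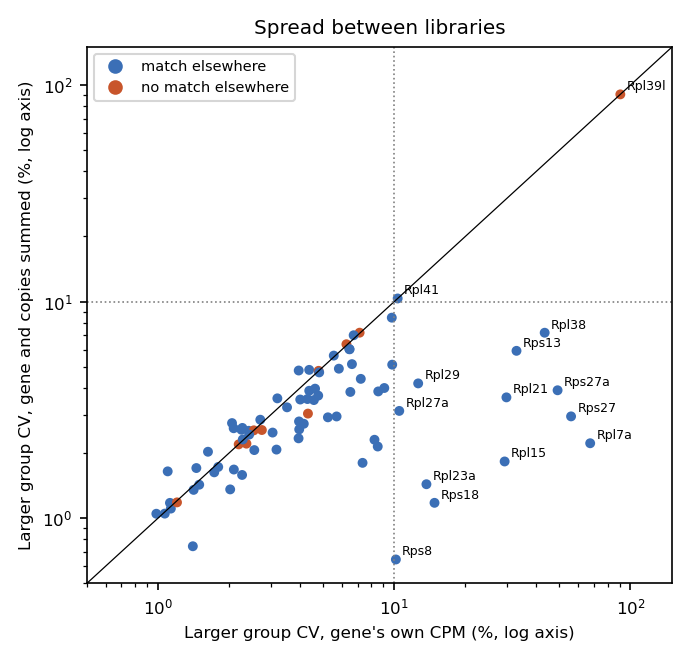
Larger of the 2 group CVs of each tested member from its own CPM (x axis, percent, log scale) and after summing with its copies (y axis, percent, log scale), for members with (blue) and without (orange) a match elsewhere. Of 14 members right of the dotted 10% line, 12 lie below the horizontal 10% line, and Rpl41 and Rpl39l stay above it.

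The 3 members with positive fold changes under TMM were none of them called, and 2 of them have copies; they were singled out after their values were seen. Rpl7a, with 70 copies, measured 33.4, 15.9 and 41.5 CPM in the wild type libraries against 49.8, 15.7 and 82.1 CPM in the labelled knockouts, a spread that covers both groups (log2 change 0.70, SE 0.48, adjusted p = 0.338). Its copy Rpl7a-ps11 measured 102, 103 and 100.1 CPM in the wild type libraries against 78.2, 87.1 and 63.7 CPM in the labelled knockouts. Summed over all copies, Rpl7a was lower in the libraries labelled knockout, at −0.27 (adjusted p = 1.13e-05). Rpl21 measured 26.6, 26.1 and 27.7 CPM in the wild type libraries against 32.5, 45.2 and 25 CPM in the labelled knockouts (log2 change 0.35, SE 0.17, adjusted p = 0.156), and −0.19 (adjusted p = 0.000408) when summed. Both genes depended on single libraries: Rpl7a was called higher without the second knockout library (1.13, adjusted p = 0.0434) and Rpl21 without the third one (0.54, adjusted p = 0.0143). Rpl21 also depended on scaling. It was called higher with library totals (0.76, adjusted p = 0.00261), where 46.8% of all tested genes were, and with limma on log2(FPKM + 1) (0.64, adjusted p = 0.0208). The same held without mitochondrial genes and members in the totals (0.50, adjusted p = 0.039).

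Rpl30, also chosen after its value was seen, measured 139.7, 129.9 and 149 CPM in the wild type libraries against 131, 127 and 152 CPM in the labelled knockouts (log2 change −0.027, SE 0.068, adjusted p = 0.823), and −0.22 (adjusted p = 0.00143) when summed. Summing moved the other members of these pairs too. Rps27 went from −0.47 to −0.19, Rps13 from −0.20 to −0.40, Rpl15 from −0.43 to −0.32 and Rps27a from −0.33 to −0.36, each called after summing. Among the largest decreases, Rpl38 went to −0.32, Rps18 to −0.32 and Rpl35a to −0.31, while Rpl39, Rpl41 and Rplp0 were at −0.58, −0.49 and −0.49. The 2 members not called after summing were Rpl39l and Rps21. Rps21, which has no match elsewhere, measured 120.3, 131 and 126 CPM in the wild type libraries against 113, 118 and 118 CPM in the labelled knockouts, the groups standing apart (log2 change −0.11, SE 0.041, adjusted p = 0.0728). It was called lower by DESeq2 (adjusted p = 0.00528), among genes with a mean FPKM of at least 1, with counts divided by 4 and without the first wild type library (adjusted p = 0.026 to 0.0375 for these 3).

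The rule takes 6 paralogs named as like forms, of which 5 were tested and 3 were lower. Rpl22, the protein tagged in ribosome pull-down mice, measured 115, 115 and 125 CPM in the wild type libraries against 96.5, 99.5 and 105 CPM in the labelled knockouts (log2 change −0.24, SE 0.047, adjusted p = 0.00348). Rpl22l1, its paralog, measured 57.7, 48.2 and 57.1 CPM in the wild type libraries against 39.8, 42 and 44.7 CPM in the labelled knockouts (log2 change −0.37, SE 0.076, adjusted p = 0.00467). Both were lower without overlap. Rpl36a was at 97.9 ± 2.77 CPM in wild type against 81.4 ± 3.37 CPM (SD, n = 3 each; log2 change −0.27, SE 0.045, adjusted p = 0.0012). Rpl36al was at 54.2 ± 2.61 CPM in wild type against 46.6 ± 0.942 CPM (SD, n = 3 each; log2 change −0.22, SE 0.054, adjusted p = 0.0121, and 0.0566 without the third knockout library). Rps27l, a paralog of Rps27 and a known p53 target, measured 36.9, 41.5 and 42.2 CPM in the wild type libraries against 32.3, 31.2 and 30.6 CPM in the labelled knockouts (log2 change −0.36, SE 0.067, adjusted p = 0.00254). It has no match elsewhere, and its groups stood apart.

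Rpl3 was at 441 ± 5.42 CPM in wild type against 399.6 ± 8.38 CPM (SD, n = 3 each; log2 change −0.14, SE 0.023, adjusted p = 0.000772). Its paralog Rpl3l, known from striated muscle, had counts in 1 library only (0.048 CPM in the third knockout library) and was not tested. Rpl7 was at 473 ± 3.5 CPM in wild type against 404 ± 4.54 CPM (SD, n = 3 each; log2 change −0.23, SE 0.020, adjusted p = 9.42e-06). Rpl7l1, which acts in ribosome assembly, measured 50, 44.5 and 49.4 CPM in the wild type libraries against 42.4, 43.6 and 41.9 CPM in the labelled knockouts and did not pass the test (log2 change −0.17, SE 0.059, adjusted p = 0.0605), although its groups did not overlap. It was called lower by DESeq2 (adjusted p = 0.00778), among genes with a mean FPKM of at least 1, with counts divided by 4, summed with copies and without the second wild type library (adjusted p = 0.02 to 0.0453 for these 4). Rpl10, which joins the large subunit late, was at 528 ± 5.64 CPM in wild type against 457 ± 3.13 CPM (SD, n = 3 each; log2 change −0.21, SE 0.019, adjusted p = 1.09e-05). Rpl39l, known from testis, was at or below 0.236 CPM in every library. Rpl10l was not analysed here. Rps4l, the paralog of Rps4x, is typed as a pseudogene in the table and so is no member; it measured 5.71, 5.17 and 6.88 CPM in the wild type libraries against 3.82, 4.22 and 2.81 CPM in the labelled knockouts (log2 change −0.71, SE 0.20, adjusted p = 0.0243). The Rps4l call was lost with library totals (−0.30, adjusted p = 0.248), without a filter (adjusted p = 0.0585) and when the first or the third library of either group was left out (adjusted p = 0.0517 to 0.0947). With library totals the log2 fold changes of Rpl22, Rpl22l1, Rpl36a, Rpl36al, Rps27l, Rpl3, Rpl7, Rpl7l1 and Rpl10 were all above 0, from 0.045 to 0.27.

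Rack1 and Fau, ribosomal proteins outside the rule, were both lower. Rack1, a scaffold on the small subunit head, measured 412, 410.4 and 415 CPM in the wild type libraries against 308, 312 and 317 CPM in the labelled knockouts (log2 change −0.40, SE 0.022, adjusted p = 1.92e-07; 0.0086 with library totals). Fau, the fusion that yields the small subunit protein eS30, measured 189, 205 and 210.3 CPM in the wild type libraries against 168, 172 and 172 CPM in the labelled knockouts (log2 change −0.24, SE 0.040, adjusted p = 0.00112; 0.17 with library totals). The groups stood apart in both genes.

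Other genes of the 5′ TOP class, mainly translation factors, were lower in 16 of 21 cases and higher in 0 under TMM. Their median was −0.22, and 11.5% of all tested genes were lower and 13.2% higher. With library totals 14 were higher and 4 lower, with a median of 0.19, beside 46.8% higher and 3.81% lower among all tested genes. Eef1a1, the elongation factor that delivers tRNA, measured 3535, 3562 and 3573 CPM in the wild type libraries against 2860.2, 2851 and 2859 CPM in the labelled knockouts (log2 change −0.32, SE 0.0076, adjusted p = 1.55e-10; 0.094 with library totals). Tpt1, the tumour protein TCTP, measured 1096, 1114 and 1142 CPM in the wild type libraries against 765, 768 and 753 CPM in the labelled knockouts (log2 change −0.55, SE 0.018, adjusted p = 2.19e-09; −0.14 with library totals). Of 9 snoRNA host genes, whose spliced RNAs also carry TOP starts, 2 were lower: Gas5 at 74.8 ± 3.04 CPM in wild type against 63 ± 3.86 CPM (SD, n = 3 each; log2 change −0.25, SE 0.055, adjusted p = 0.00739) and Zfas1 at 11.5 ± 0.87 CPM in wild type against 7.89 ± 1.01 CPM (SD, n = 3 each; log2 change −0.54, SE 0.13, adjusted p = 0.0127). Their list's median was −0.21. The Zfas1 call was lost without wild type 1 (adjusted p = 0.0505), knockout 1 (adjusted p = 0.053) and with library totals (−0.13, adjusted p = 0.477).

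Of 51 factors that assemble ribosomes 8 were lower and 1 higher under TMM, with a median of −0.071, beside 11.5% lower and 13.2% higher among all tested genes. Ncl, nucleolin, was at 255 ± 6.29 CPM in wild type against 208 ± 6.68 CPM (SD, n = 3 each; log2 change −0.29, SE 0.032, adjusted p = 5.43e-05). Emg1, a methyltransferase of 18S ribosomal RNA, was at 32.1 ± 0.87 CPM in wild type against 25.4 ± 2.23 CPM (SD, n = 3 each; log2 change −0.34, SE 0.077, adjusted p = 0.00776). Of 15 tested genes of RNA polymerase I and its factors 2 were higher and 1 lower, with a median of 0.032. The one that was lower was Polr1d, a subunit shared with RNA polymerase III, at 32.3 ± 1.35 CPM in wild type against 24.3 ± 2.02 CPM (SD, n = 3 each; log2 change −0.41, SE 0.077, adjusted p = 0.00246), and −0.0023 with library totals (adjusted p = 0.985). Taf1a, of the selectivity factor of RNA polymerase I, was at 15.1 ± 1.62 CPM in wild type against 19.6 ± 0.16 CPM (SD, n = 3 each; log2 change 0.38, SE 0.096, adjusted p = 0.0149), a call lost without the second or the third knockout library (adjusted p = 0.051 and 0.0557).

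Of 23 tested regulators of growth and TOP translation 5 were higher and 1 lower, with a median of 0.12. Under TMM 13.2% of all tested genes were higher and 11.5% lower. Mxd4, a Max partner that opposes Myc, was at 132 ± 3.78 CPM in wild type against 169 ± 6.37 CPM (SD, n = 3 each; log2 change 0.36, SE 0.038, adjusted p = 4.47e-05). Rps6kb2, an S6 kinase, was at 16.1 ± 1.52 CPM in wild type against 22 ± 2.5 CPM (SD, n = 3 each; log2 change 0.45, SE 0.11, adjusted p = 0.00959). The proteins of the mitochondrial ribosome, which are also encoded in the nucleus, were lower in 5 of 78 cases and higher in 0, with a median of −0.065. Mrpl30 was at 29.7 ± 2.33 CPM in wild type against 23.3 ± 1.09 CPM (SD, n = 3 each; log2 change −0.35, SE 0.078, adjusted p = 0.00739), and Mrps18c at 14.7 ± 0.236 CPM in wild type against 11.5 ± 0.965 CPM (SD, n = 3 each; log2 change −0.36, SE 0.10, adjusted p = 0.025), with adjusted p-values of 0.0501 to 0.101 when any 1 library but the third knockout one was left out. With library totals 30 assembly factors, 12 polymerase I genes, 21 regulators and 48 mitochondrial ribosomal proteins were higher and 0 lower. Their list medians were 0.34, 0.44, 0.53 and 0.35. In that scaling 46.8% of all tested genes were higher and 3.81% lower, with a median of 0.41.

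**Figure D5:**
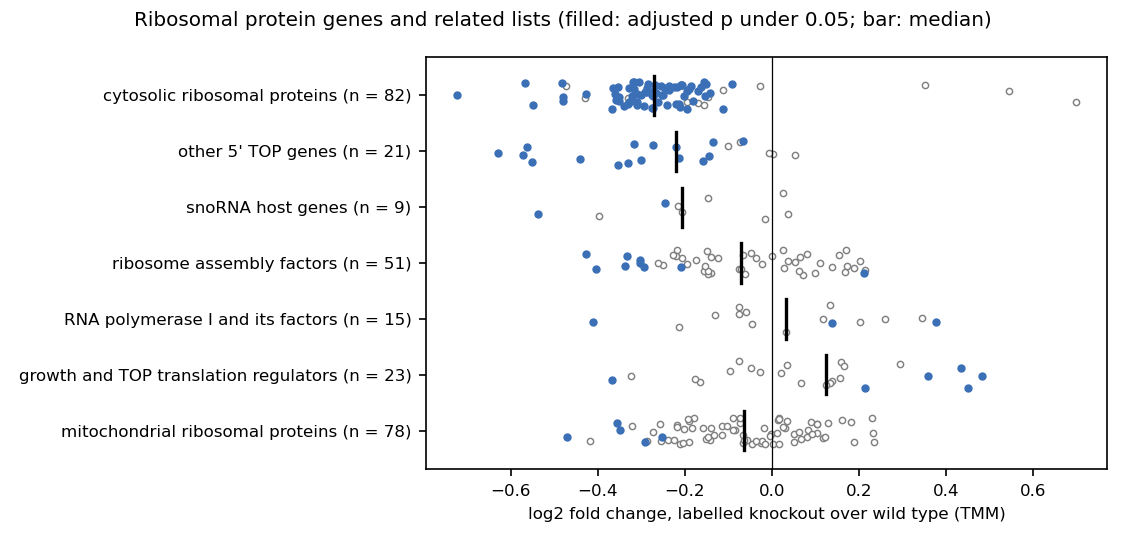
Log2 fold change (x axis, labelled knockout over wild type, TMM) of each tested gene in 7 lists, with the list's median as a bar; filled points have an adjusted p under 0.05, and points are spread vertically for visibility. The medians run from −0.27 for the cytosolic ribosomal proteins and −0.22 for the other 5′ TOP genes to 0.12 for the regulators; with library totals those 3 medians are 0.14, 0.19 and 0.53.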

How the data were processed

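The 6 poly(A) RNA libraries of aorta were sequenced as read pairs, per the labels' protocols. Bowtie 0.12.2, HISAT2 2.0 and mm8 appear, without a role, in the submitters' processing notes. The sources used here do not give the counter, annotation or strand setting. The deposited table holds whole numbers that were read as estimated counts, about 4 per read pair because low values peak at multiples of 4, which no source states. It also holds FPKM, scaled by the authors to each library's total, per the file headers. Its coordinates equal those of GENCODE M21 on GRCm38 for 70 of the 83 members, and sequences were read from that release and from RefSeq.

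Rounded counts were fitted with edgeR 4.0.16 in R 4.3.3 (glmQLFTest, filterByExpr, TMM, 3 against 3, no covariate) and the threshold was a Benjamini-Hochberg adjusted p of 0.05 over 20132 genes. A negative fold change is lower in the labelled knockout. Copies and matches were found with BLAST+ 2.17.0. Alternatives were DESeq2 1.42.0, limma 3.58.1 on FPKM and the scalings, filters, block and left-out libraries given under the closing section. The edgeR steps were tested on simulated data.

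Members, gene lists and markers were chosen with earlier results of these data known. Named members are the 8 with the highest mean FPKM, the 6 largest increases (0 were called) and decreases among members called with a mean FPKM of at least 1, members with roles beyond the ribosome, and paralog pairs. In each related list 2 genes with the smallest p are named, where the rule allows up to 4. Of the genes these rules name, 2 are not reported here. Rpl7a, Rpl21, Rps13, Rpl15, Rpl30, Rps21 and the named copies were chosen after their values were seen.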

Additional observations from a re-analysis of the deposited data

How the results depend on the processing

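Of the alternatives run, scaling moved the results most. With library totals 2 members were lower and 52 higher (median 0.14), with limma on log2(FPKM + 1) 2 and 50 (median 0.14), and with limma on log2(FPKM + 0.1) 2 and 50 (median 0.14). Library totals without mitochondrial genes and members gave 38 lower and 1, Rpl21, higher (median −0.12). The median was −0.24 without a filter and −0.24 with library totals outside mitochondrial genes and their nuclear copies, an alternative added after seeing the data. The difference in the members' share of counts, 0.168 percentage points higher in the libraries labelled knockout, became −0.194 outside mitochondrially encoded genes and −0.472 outside their nuclear copies too. In the 7 related lists, from ribosomal proteins outside the rule to mitochondrial ones, 8 genes were higher and 35 lower under TMM. Higher were 129 with library totals, 33 without mitochondrial genes and members, 13 by DESeq2 and 125 with limma at either pseudocount. Lower were 4 with library totals, 13 without mitochondrial genes and members, and 4 with limma at either pseudocount. Tested were 21 other 5′ TOP genes, 9 snoRNA hosts, 51 assembly factors, 15 polymerase I genes, 23 regulators and 78 mitochondrial ribosomal proteins, beside those outside the rule. Over all tested genes 13.2% were higher and 11.5% lower under TMM. The shares were 46.8% and 3.81% with library totals and 46.9% and 4.31% with limma on log2(FPKM + 1). Josd2 was no longer called with library totals (−0.11) or limma (−0.097 and −0.11 at pseudocounts of 1 and 0.1). DESeq2, its size factors, TMM without mitochondrial genes, other filters, counts divided by 4 and omission of the like paralogs kept the count of members lower within 1.5 times 70. When single libraries were left out, 64 to 70 members were lower and 0 to 1 higher, with medians of −0.26 to −0.25, and 3 to 8 and 22 to 32 genes of the related lists were higher and lower. The low ends for the related lists were those without the second and the first knockout library. The members' 1 higher call was Rpl7a without the second knockout library and Rpl21 without the third. The cause of these shifts was not tested.

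Replicate numbers are shared by the groups but the labels do not tie same-numbered samples together. Deviations of same-numbered samples correlated at 0.034, −0.023 and −0.0096 over all tested genes. There the second wild type library correlated best with the third knockout one (0.034), and the third with the second (0.034). Over the members same-numbered samples correlated at 0.73, 0.65 and 0.61, and each library correlated best with its own number. Differently numbered samples correlated at −0.55 to 0.040 over the members. The members' counts are uncertain where reads fit several genes. Whether these correlations come from pairing, a shared batch or the counting of such reads was not tested. With the replicate number as a block 72 members were lower and 1, Rpl7a, higher (0.53, adjusted p = 0.038). Rps27 (−0.40, adjusted p = 0.0404) and Rpl15 (−0.47, adjusted p = 0.0042) were then called lower, and Rps4l (−0.72, adjusted p = 0.051) was no longer called.

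Named genes that changed sign with library totals were Rplp1 0.13, Rps3a1 0.11, Rps15 0.32, Rpl4 0.20, Rps4x 0.099, Rpl19 0.21, Rplp2 0.15, Rpsa 0.071, Rps6 0.14, Rpl5 0.092, Rpl11 0.17, Rpl13a 0.20, Rps27a 0.080, Rpl10a 0.26, Rps25 0.25, Rpl3 0.27, Rpl7 0.18, Rpl7l1 0.24, Rpl10 0.20, Rpl22 0.17, Rpl22l1 0.045, Rpl36a 0.14, Rpl36al 0.19, Rps27l 0.052, Rps13 0.21, Rpl30 0.38, Rps21 0.30, Rack1 0.0086, Fau 0.17, Eef1a1 0.094, Gas5 0.16, Ncl 0.12, Emg1 0.072, Mrpl30 0.061 and Mrps18c 0.053. With limma on log2(FPKM + 1) they were Rplp1 0.13, Rps3a1 0.11, Rps15 0.32, Rpl4 0.20, Rps4x 0.097, Rpl19 0.21, Rplp2 0.14, Rpsa 0.069, Rps6 0.14, Rpl5 0.090, Rpl11 0.17, Rpl13a 0.19, Rps27a 0.018, Rpl10a 0.25, Rps25 0.24, Rpl3 0.26, Rpl7 0.18, Rpl7l1 0.22, Rpl10 0.20, Rpl22 0.17, Rpl22l1 0.045, Rpl36a 0.14, Rpl36al 0.19, Rps27 0.017, Rps27l 0.052, Rps13 0.24, Rpl30 0.37, Rps21 0.29, Rack1 0.0073, Fau 0.17, Eef1a1 0.093, Gas5 0.15, Ncl 0.11, Emg1 0.057, Mrpl30 0.053 and Mrps18c 0.046. At a pseudocount of 0.1 the values were Rplp1 0.13, Rps3a1 0.11, Rps15 0.32, Rpl4 0.20, Rps4x 0.097, Rpl19 0.21, Rplp2 0.15, Rpsa 0.070, Rps6 0.14, Rpl5 0.090, Rpl11 0.17, Rpl13a 0.19, Rps27a 0.017, Rpl10a 0.26, Rps25 0.24, Rpl3 0.27, Rpl7 0.18, Rpl7l1 0.24, Rpl10 0.20, Rpl22 0.17, Rpl22l1 0.047, Rpl36a 0.14, Rpl36al 0.19, Rps27 0.020, Rps27l 0.053, Rps13 0.25, Rpl30 0.38, Rps21 0.30, Rack1 0.0074, Fau 0.17, Eef1a1 0.093, Gas5 0.16, Ncl 0.11, Emg1 0.066, Mrpl30 0.061 and Mrps18c 0.049. Without mitochondrial genes and members in the totals, Rps15 0.060, Rpl3 0.0088, Rpl30 0.13 and Rps21 0.040 changed sign. In that setting 15 other named genes kept their direction and lost their call. Rpl30 was at 0.0028 without a filter and at 0.0014 with totals outside mitochondrial genes and nuclear copies. Summed with copies, Rpl7a −0.27 and Rpl21 −0.19 changed sign. Leaving out single libraries moved Rpl39l between −0.019 and 1.24, Rps13 between −0.41 and 0.073, and Rpl30 between −0.11 and 0.026. The number of libraries and reads that fit several genes limit single members, and total counts limit Rpl3l and Rpl39l.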
